A study of Mus musculus with 24 samples.

Results

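The genes described here encode the protein components of the cytosolic ribosome. They were chosen by symbol from the count table: every protein-coding gene named Rpl, Rps or Rplp followed by a digit, leaving out the S6 kinases and all pseudogenes. The rule matched 101 protein-coding symbols, from which 10 S6 kinase genes and 6 genes named as pseudogenes were removed. It left 85 of the 55421 genes with a count row, 52 for the large subunit and its stalk (Rpl and Rplp) and 33 for the small subunit (Rps). The rule used no measured value. It brings in Rps19bp1, which encodes a protein that binds Rps19 and is not a ribosomal protein, and Rpl7l1, a paralog of Rpl7 best known from ribosome assembly. Of the 85 genes, 82 passed the filter on low counts in every comparison. The 3 that did not were Rpl10l, Rpl39l and Rpl3l, paralogs of Rpl10, Rpl39 and Rpl3 whose level was at most 0.752 CPM (counts scaled to 1 M) in any library.

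RNA was measured in 24 libraries from small intestinal crypts of 8 mice. The 4 control mice carried 1 floxed and 1 wild-type Setd1a allele (Setd1aFC/+; Lgr5-eGFP-CreERT2; animals BN44, BO27, BO58 and BP03), and the 4 knockout mice carried 2 floxed alleles (Setd1aFC/FC; Lgr5-eGFP-CreERT2; animals BN45, BO25, BO57 and BP04). Both genotypes carried the inducible Cre recombinase under Lgr5, which is active in intestinal stem cells, and both received 1 mg tamoxifen by intraperitoneal injection on 3 consecutive days, with cells collected 4 days after induction. At least 1 floxed allele, the Cre driver and the drug are therefore common to both groups, and the share of cells that recombined was not measured. Single live cells were sorted by EpCAM, CD24 and CD45 into a stem, a transit-amplifying (TA) and a Paneth fraction, which gives 6 groups of 4 libraries with every animal present once in each fraction.

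Ribosomal proteins join ribosomal RNA in near-equal amounts to form the small subunit, which reads the mRNA, and the large subunit, which joins amino acids. Their mRNAs begin with a pyrimidine-rich stretch, the 5′ terminal oligopyrimidine (TOP) motif, through which mTORC1 and Larp1 set their translation. In the crypt, stem and TA cells divide, and Paneth cells are non-dividing secretory cells that make antimicrobial peptides. Setd1a is a histone methyltransferase of the COMPASS family that marks active promoters. The comparison of knockout with control asks whether its loss goes with altered mRNA levels in each fraction.

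Libraries held 24.73 to 47.05 M counts. CPM rest on a library size scaled over all 24 libraries by TMM, and p-values come from edgeR's quasi-likelihood test with Benjamini-Hochberg adjustment over all genes tested. Setd1a counted over the whole gene stood at 5.62 ± 1.51 CPM (SD, n = 4) in control and 5.16 ± 1.48 in knockout stem libraries, and the groups overlapped in every fraction (lowest adjusted p = 0.983). Gene-level counts include exons outside the floxed part, so this does not check the deletion. The summed CPM of 5 stem markers (Lgr5, Olfm4, Ascl2, Smoc2, Rgmb) was 25120 to 43938 in stem libraries and 3131 to 9327 in the others. The 5 Paneth markers summed to 57732 to 872312 CPM in the Paneth fraction and to at most 3925 elsewhere. The Paneth fraction also held the 5 enteroendocrine markers (3154 to 7371 CPM), the 5 tuft markers (1469 to 2969 CPM) and the 5 immune markers (22.3 to 42.4 CPM), and is called by its gate below. The 5 goblet markers summed to 4051 to 11080 CPM in TA, 1214 to 17278 CPM in Paneth and 108 to 1082 CPM in stem libraries. TA cells are thus also named by their gate. The part of goblet RNA in differences between fractions was not tested. Fewer cells of a type and less RNA per cell cannot be told apart in such bulk samples.

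Promoter sequence was on hand for 65 of the 85 genes, in 77 RefSeq windows of 300 bases (GRCm38.p6), and 20 genes, Rpl32 among them, have no entry. Windows from 60 bases before to 20 bases from the annotated start, 5′ to 3′ on the gene's strand, are shown for 6 genes described below. These are Rps15a and Rpl22l1, whose knockout stem libraries all lay below the controls, Rps26, whose knockout TA libraries all lay above the controls, Rps24 and Rpl4, which passed the threshold between fractions, and Rps27l, called between stem and TA cells of knockouts with the animal as a block. In that order, the windows are chr7:118116128-118116207 (minus strand), chr3:28805448-28805527 (plus strand), chr10:128626487-128626566 (minus strand), chr14:24490618-24490697 (plus strand) and chr14:24490693-24490772 (plus strand) for the 2 annotated starts of Rps24, chr9:64173327-64173406 (plus strand) and chr9:66946026-66946105 (plus strand). Capitals mark exact matches, on either strand, to CTCTTTC (a pyrimidine run of the kind found at TOP starts), CGGAAGT (the core bound by ETS factors) or AAGATGG (the core bound by YY1). None of these 3 motifs contains another.
Rps15a: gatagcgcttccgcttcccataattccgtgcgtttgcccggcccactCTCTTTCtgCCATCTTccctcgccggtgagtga
Rpl22l1: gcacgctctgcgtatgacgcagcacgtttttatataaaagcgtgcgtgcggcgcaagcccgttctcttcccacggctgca
Rps26: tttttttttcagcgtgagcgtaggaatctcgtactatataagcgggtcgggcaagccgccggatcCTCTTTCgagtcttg
Rps24 first: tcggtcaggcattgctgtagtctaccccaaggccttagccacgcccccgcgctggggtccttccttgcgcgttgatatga
Rps24 second: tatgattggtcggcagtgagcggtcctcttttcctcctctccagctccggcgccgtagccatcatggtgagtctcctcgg
Rpl4: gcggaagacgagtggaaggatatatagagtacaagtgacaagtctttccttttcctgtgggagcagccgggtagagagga
Rps27l: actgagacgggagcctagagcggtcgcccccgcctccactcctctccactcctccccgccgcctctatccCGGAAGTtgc

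In the 80 bases shown, Rps15a held the pyrimidine run before its annotated start, followed by the reverse complement of the YY1 core. Rps26 held the pyrimidine run after its annotated start, and Rps27l held the ETS core. Neither pyrimidine run begins at the annotated start itself. No match was found in the 80 bases shown for Rpl22l1, for Rpl4 or at either start of Rps24. Over the full windows, CTCTTTC on either strand lay in 21 of the 77 windows (27.3%; 18 genes), against 8.16% of all 32851 windows of that length. CGGAAGT lay in 23 windows (29.9%; 22 genes), against 6.42% of all, and AAGATGG in 12 (15.6%; 10 genes), against 6.34%. These are matches of letters, given as a description.

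Ribosomal protein genes have many processed pseudogenes, and this bears on every level given here. A sequence search of annotated pseudogene transcripts (at least 80% identity over at least 50% of the pseudogene) tied 1696 pseudogenes to 82 of the 85 genes. Of these, 277 carried a ribosomal protein symbol and 1419 another symbol. Together they held 1.59 counts for each count of the genes themselves. The median tested gene held 21.3% of the counts of itself and its matched pseudogenes, 63 of the 85 genes held less than 50% and 23 less than 10%. Rps27l (97.8%), Rps3 (95.3%), Rps27rt (88.3%), Rpl4 (84.3%), Rpl22 (83.9%) and Rpl32 (78.5%) held most of theirs. Rps10 (1.12%), Rpl24 (1.68%), Rpl5 (3.25%) and Rps6 (4.79%) held very little.

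Per kilobase of exon, mean levels over the 24 libraries spanned 1034-fold among the 82 tested genes. The length used is that of all annotated exons of a gene merged, such as 374 bases for Rps27rt and 6270 for Rps15a. It therefore enters this ranking and can exceed the length of the mRNA. The highest were Rpl4 (1280 CPM per kb), Rps27rt (991), Rplp0 (877) and Rpl32 (835). The lowest were Rps10 (1.24 CPM per kb), Rpl28 (3.30), Rps13 (3.71) and Rpl24 (4.24). Of the counts of themselves and their matched pseudogenes, these 4 held 1.12%, 5.59%, 6.73% and 1.68%. Over the 82 genes that percent and the level per kb had a rank correlation (Spearman) of 0.66. The ranking is thus one of counts assigned to each gene. The counts of matched pseudogenes per count of the genes were 1.60 to 1.63 in control stem, 1.52 to 1.61 in knockout stem, 1.53 to 1.59 in control TA and 1.53 to 1.63 in knockout TA libraries. Each gene was therefore also tested after adding the counts of its matched pseudogenes, an alternative chosen after the data were seen.

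The 85 genes took the largest share of the library in control stem cells and the smallest in the Paneth fraction. Their share of all gene counts was 2.46 ± 0.21% (SD, n = 4) in control and 2.13 ± 0.21% in knockout stem cells, 1.86 ± 0.12% in control and 2.11 ± 0.10% in knockout TA cells, and 0.880 ± 0.083% in control and 0.896 ± 0.233% in the knockout Paneth fraction. In TA cells the knockout libraries lay from 1.98 to 2.203% and the controls from 1.69 to 1.98%, with the lowest knockout (BN45, 1.975%) just below the highest control (BO58, 1.978%). In stem cells the groups overlapped, since the knockout BO25 (2.43%) lay above the controls BP03 (2.18%) and BO27 (2.426%). The share depends on the other genes in a library: the 10 most abundant genes took 13.1 to 23.7% of counts in stem and TA libraries and 18.8 to 57.2% in the Paneth fraction. Without those 10 genes the shares were 2.99 ± 0.21% and 2.70 ± 0.25% in stem, 2.17 ± 0.15% and 2.51 ± 0.13% in TA and 1.33 ± 0.10% and 1.48 ± 0.20% in Paneth libraries, control before knockout.

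**Figure D1:**
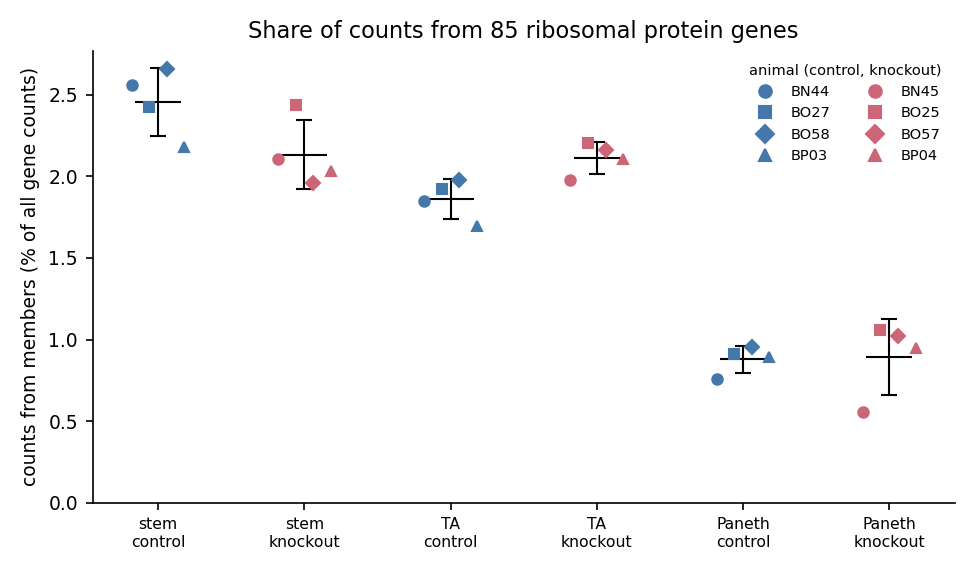
Share of all gene counts taken by the 85 ribosomal protein genes, in percent, in each of the 24 libraries. Points are libraries, marked by animal, and bars show the mean and SD of 4 libraries. Control stem libraries lie between 2.18 and 2.66% and control TA libraries between 1.69 and 1.98%, while the knockout stem and TA libraries overlap.

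Rpl32, a large subunit protein (chromosome 6, 115805505 to 115808747, minus strand, mm10), stood at 1100, 1143, 1209 and 905 CPM in the control stem libraries (BN44, BO27, BO58, BP03) and at 838, 1324, 828 and 950 CPM in the knockout ones (BN45, BO25, BO57, BP04). In TA cells it stood at 615, 802, 759 and 575 CPM in controls and at 792, 1189, 1064 and 979 CPM in knockouts. In the Paneth fraction it stood at 529, 462, 181 and 576 CPM in controls and at 637, 786, 537 and 529 CPM in knockouts. In control animals every stem library lay above every TA library, and in knockout animals the 2 fractions overlapped.

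In stem cells, no member passed the adjusted threshold between genotypes, and most had a lower level in the knockout. Of 82 genes, 67 had a negative and 15 a positive log2 fold change, with a median of -0.19 against 0.01 over all 16018 genes tested. edgeR called 0 members (of all genes, 0% were called higher and 0.0125% lower; lowest adjusted p of a member = 0.351). At an unadjusted p under 0.05, 2 members were lower and 0 higher, where 3.91% of all genes were lower and 2.79% higher, so this count is near the background. Libraries of the 2 groups did not overlap for 5 members, all lower in the knockout, where 3.05% of all genes were apart in that direction. DESeq2 called 1 of 83 members lower, Rps15a, where it called 0.964% of all genes lower, so this count is at the background.

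Rps15a encodes a protein of the small subunit. It stood at 115, 87.0, 95.6 and 69.4 CPM in the control stem libraries and at 58.0, 67.9, 51.5 and 53.1 CPM in the knockout ones. The groups did not overlap, although the highest knockout library (BO25, 67.9 CPM) lay close to the lowest control library (BP03, 69.4 CPM). The log2 fold change was -0.67 ± 0.18 (SE; 1.59-fold lower; adjusted p = 0.351 with edgeR, and adjusted p = 0.0367 with DESeq2). With its 18 matched pseudogenes the value was -0.47 (adjusted p = 0.708).

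Rpl22l1 encodes a paralog of the large subunit protein Rpl22 and can take its place. Its levels were 117, 103, 113 and 95.1 CPM in control and 73.6, 91.6, 75.4 and 84.6 CPM in knockout stem libraries, so the groups did not overlap. The log2 fold change was -0.40 ± 0.14 (adjusted p = 0.569 with edgeR), and -0.58 with its pseudogenes (adjusted p = 0.293). Rpl22 itself stood at 175 ± 51 CPM in control and 147 ± 25 in knockout stem cells (log2 fold change -0.25), and these libraries overlapped.

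The other 3 members whose stem libraries did not overlap were Rps3, a small subunit protein at the mRNA entry channel (1370 ± 122 against 1156 ± 66 CPM, control before knockout; log2 fold change -0.24 ± 0.11, adjusted p = 0.749), Rpl36a (17.0 ± 0.8 against 13.8 ± 0.6 CPM; -0.30 ± 0.15) and Rpl11, which with Rpl5 can bind Mdm2 (-0.23 ± 0.16). The stalk proteins Rplp0, Rplp1 and Rplp2, which recruit elongation factors to the large subunit, had log2 fold changes of -0.10, -0.44 and -0.45, none past the threshold. The 43 core large subunit members had a median of -0.17 (34 lower, 9 higher), and the 30 core small subunit members a median of -0.20 (25 lower, 5 higher).

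Of the 15 members with a higher level in knockout stem cells, the largest value was that of Rps12, a small subunit protein, at 10.6 ± 3.3 CPM in control and 14.6 ± 3.2 in knockout (log2 fold change 0.45 ± 0.26, adjusted p = 0.822). Rps10, at 0.20, and Rpl10a, at 0.18, were next. The median share of their family's counts that these genes kept was 9.30% in the 15 and 25.4% in the 67. The members against the majority did not keep a lower share elsewhere: it was 32.3% against 20.5% in TA cells, 27.7% against 20.1% in the Paneth fraction and 25.4% against 21.3% in the difference of stem and TA effects. When the matched pseudogenes were added, 12 of the 15 turned negative (Rps12 to -0.05, Rps10 to -0.23, Rpl10a to -0.05), and 78 of 82 were then lower, with a median of -0.25. No member was called on those sums (lowest adjusted p = 0.293, and 6 lower at an unadjusted p under 0.05, where 4.04% of all genes were). Leaving out each animal in turn kept 62 to 75 members lower. The number lower at an unadjusted p under 0.05 went from 2 to 15 without the knockout BO25, to 6 without the control BP03, to 4 without the control BO27 and to 1 without the knockout BO57, where 3.19 to 4.3% of all genes were lower at that p without 1 animal. The summed stem markers were at 28251 ± 3326 CPM in control and 33913 ± 6864 in knockout stem libraries. Most of that sum was Olfm4 (27341 ± 3242 and 32902 ± 6747 CPM). Taken singly, Lgr5 did not overlap (138 to 169 against 180 to 219 CPM, control before knockout). Rgmb did not overlap either (241 to 254 against 257 to 286 CPM), while Olfm4, Ascl2 and Smoc2 did. Mitochondrially encoded genes took 14.0 ± 2.7% of counts in control and 16.1 ± 2.7% in knockout stem libraries. The part of these measures in the member values was not tested.

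In TA cells most members had a higher level in the knockout. Of 82 genes, 74 had a positive and 8 a negative log2 fold change, with a median of 0.21 against -0.02 over all 15871 genes tested. No member passed the adjusted threshold with edgeR (0% of all genes were called higher and 0% lower; lowest adjusted p of a member = 0.650), and DESeq2 called 0 of 83. At an unadjusted p under 0.05, 21 members were higher and 0 lower, where 2.63% of all genes were higher. The knockout libraries all lay above the control libraries for 10 members, where 1.87% of all genes were so placed.

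**Figure D2:**
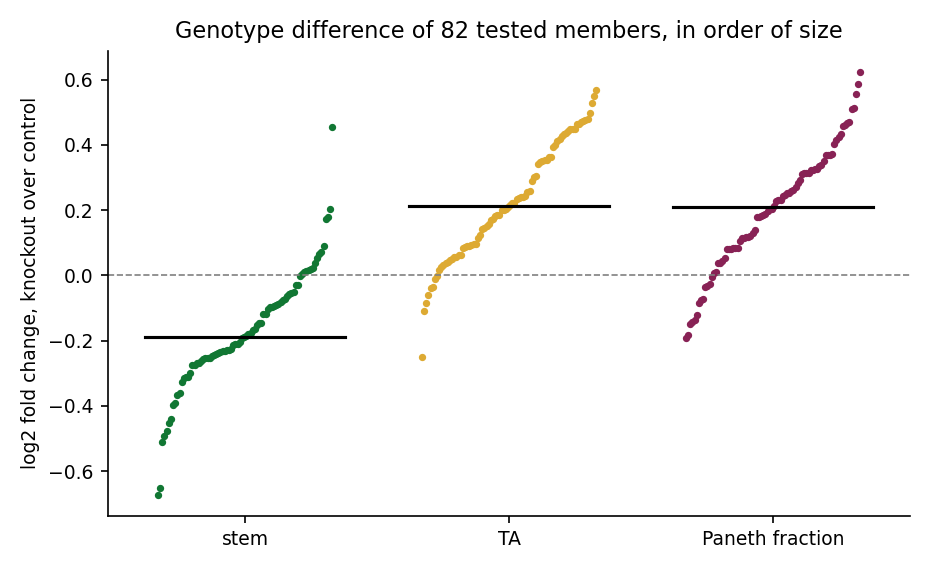
Log2 fold change of knockout over control for the 82 tested members in each fraction, in order of size within the fraction. Points are genes and black lines the medians, which lie at -0.19 in stem, 0.21 in TA and 0.21 in the Paneth fraction. No point passed the adjusted threshold with edgeR.

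Rpl32 had the smallest p in TA cells. Its levels, given above, averaged 688 ± 110 CPM in control and 1006 ± 167 in knockout libraries, and the lowest knockout (BN45, 792 CPM) lay below the highest control (BO27, 802 CPM). The log2 fold change was 0.55 ± 0.16 (1.46-fold; adjusted p = 0.650).

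Rps26, a small subunit protein near the mRNA exit, stood at 187, 200, 162 and 141 CPM in control and at 220, 259, 225 and 231 CPM in knockout TA libraries. The knockout libraries were all above the controls (log2 fold change 0.44 ± 0.14, adjusted p = 0.687). Rpl22 stood at 130, 116, 107 and 99.7 CPM in control and at 152, 182, 143 and 142 CPM in knockout TA libraries, again without overlap (0.45 ± 0.13, adjusted p = 0.650). Rps15, a small subunit protein near the decoding site, stood at 138, 173, 159 and 142 CPM in control and at 175, 252, 211 and 207 CPM in knockout TA libraries, and its lowest knockout and highest control were 175 and 173 CPM (0.46 ± 0.14, adjusted p = 0.656).

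Others apart in TA cells included Rplp1 (180 ± 26 against 250 ± 35 CPM, control before knockout) and Rpl41, the shortest of the ribosomal proteins (273 ± 56 against 386 ± 45 CPM). They also included Rps24 (138 ± 14 against 176 ± 18 CPM), Rpl10a, Rpl37a and Rps12, and not all are named here. Small subunit members had a median of 0.27 (28 of 30 higher) and large subunit members one of 0.20 (39 of 43 higher). Within the stalk, Rplp1 (0.47) and Rplp2 (0.42) were at an unadjusted p under 0.05, while Rplp0, the scaffold that carries both, was at 1598 ± 177 CPM in control and 1596 ± 157 in knockout libraries.

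The 8 members with a lower level in knockout TA cells were led by Rpl15, a large subunit protein, at 154, 126, 135 and 128 CPM in control and at 124, 78.4, 124 and 130 CPM in knockout libraries (log2 fold change -0.25 ± 0.17, adjusted p = 0.933). The single library of BO25 sat far below the other 7. The next were Rps2 (-0.11), Rpl13a (-0.08) and Rpl10 (-0.06). With pseudogenes added, 78 of 82 members were higher, with a median of 0.32 and 31 at an unadjusted p under 0.05 (2.52% of all genes), and none was called (lowest adjusted p = 0.522). Rpl15, Rps2, Rplp0 and Rpl7l1 then kept a negative sign. Leaving out each animal in turn kept 68 to 78 members higher. The number higher at an unadjusted p under 0.05 fell to 7 without the control BP03 and to 12 without the knockout BP04 (2.08 to 3.39% of all genes without 1 animal).

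**Figure D3:**
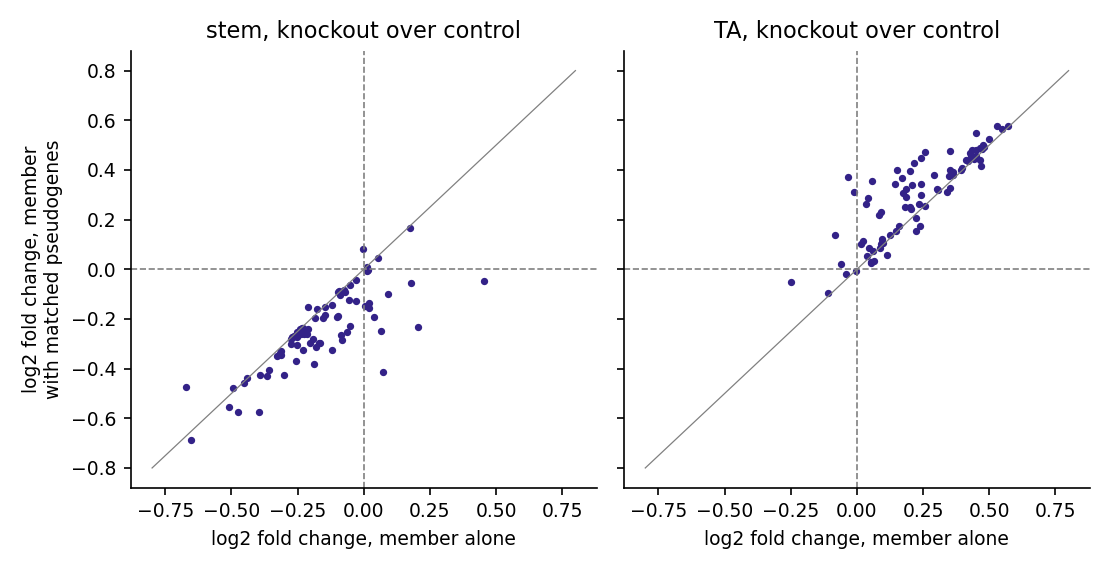
Log2 fold change of knockout over control for each of the 82 tested members alone (horizontal axis) and with the counts of its matched pseudogenes added (vertical axis), in stem and TA cells. The solid line marks equal values and dashed lines mark 0. In stem cells 12 of the 15 members right of 0 lie below 0 once pseudogenes are added, and in TA cells 4 of the 8 members left of 0 lie above it.

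Other measures of the TA libraries stand beside these values. The summed stem markers were at 6121 ± 1566 CPM in control and 7350 ± 1426 in knockout TA libraries, the 5 Paneth markers at 855 ± 204 and 1627 ± 1549 CPM, and the 3 proliferation markers at 768 ± 67 and 684 ± 45 CPM. The 5 goblet markers were at 8078 ± 2608 and 7971 ± 3393 CPM and the 5 enterocyte markers at 1874 ± 478 and 1861 ± 178 CPM. The ranges of all these sums overlapped. Among the single markers, Rgmb did not overlap (41.3 to 60.7 against 65.7 to 80.7 CPM, control before knockout). Top2a, a proliferation marker, did not overlap either (252 to 316 against 215 to 246 CPM). The other single markers of these sums did overlap. The 5 immune markers summed to at most 0.501 CPM and the 5 stromal and endothelial markers to at most 1.28 CPM in TA libraries. The counts of mitochondrially encoded genes were 12.5 ± 0.9% in control and 13.9 ± 1.8% in knockout TA libraries. The part of these measures in the member values was not tested.

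In the Paneth fraction 69 members had a higher and 13 a lower level in the knockout, with a median of 0.21 against -0.00 over all 16242 genes tested. edgeR called 0 members (0% of all genes in either direction; lowest adjusted p of a member = 1.00) and found 0 at an unadjusted p under 0.05, where 0.942% of all genes were higher and 1.35% lower. DESeq2 called 0 of 82. Only Rpl17 had all knockout libraries above all controls, where 0.856% of all genes were so placed. Rps19, Rpl13a, Rpl12 and Rpl32 had the smallest p among those higher, with log2 fold changes of 0.51, 0.47, 0.47 and 0.51. Rps3a1, at -0.18, had the smallest p among those of negative sign.

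The Paneth fraction of 1 control animal, BO58, stood apart. It was the lowest of the 8 Paneth libraries for 61 of the 82 members, while the next library was lowest for 8. Its Rpl32 level was 181 CPM against 462 to 576 in the other controls, and its Rps15 level 51.2 CPM against 134 to 141. It was the highest of the 8 for 3 members, among them Rpl4, at 1858 CPM against 1050 to 1590 in the other controls. Its Paneth markers were also the lowest, at 57732 CPM against 156659 to 872312 in the other 7, and its 10 most abundant genes took 18.8% of counts against 27.2 to 57.2%. Without BO58 the median member difference between genotypes fell from 0.21 to 0.07, with 54 members higher and 28 lower, and without the knockout BN45 it was 0.13.

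Animals BN44 (control) and BN45 (knockout) shared another feature. Rpl39, a short protein lining the exit tunnel, was at 103, 62.2 and 80.2 CPM in BN44 (stem, TA, Paneth) and at 52.2, 54.0 and 89.6 CPM in BN45, and at 9.07 to 49.3 CPM in the other 18 libraries. In every fraction the highest Rpl39 level was in one of these 2 animals. Rps27rt, a retrotransposed copy of Rps27, reached 707 CPM in BN44 stem cells and 540 CPM in the BN45 Paneth fraction. The feature was not limited to these 2 genes. Rps21, Rps28 and Rps29 were also highest in BN44 among controls and in BN45 among knockouts, in every fraction. In control stem libraries Rps28 was at 52.1 CPM in BN44 against 15.8 to 20.2 in the others. In the knockout Paneth fraction it was at 41.1 CPM in BN45 against 8.92 to 11.4. Members with this pattern were not counted. The 2 animals are 1 of each genotype, and the labels do not say whether animals with a shared prefix were processed together.

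The genotype differences in stem and TA cells were opposite in sign for most members, and the difference between them was tested gene by gene in the fit of all 24 libraries. By sign, 60 of 82 members were lower in knockout stem cells and higher in knockout TA cells, against 21.1% of all genes. The stem effect minus the TA effect was negative for 76 members and positive for 6, with a median of -0.40 against 0.00 over all 19552 genes tested. No member passed the adjusted threshold with edgeR (0% of all genes in either direction; lowest adjusted p of a member = 1.00) or DESeq2. At an unadjusted p under 0.05, 3 members were negative, where 2.45% of all genes were, so this count is near the background. They were Rps24 (-0.59 ± 0.24), Rps15a (-0.82 ± 0.38) and Rps26 (-0.76 ± 0.36). With the animal as a block there were 9 (2.33% of all genes), and in a fit of only the 4 groups compared, an alternative chosen after the data were seen, there were 23 (3.31% of all genes), with 0 called in each. Without the control BO58 there were 13, without the control BN44 or the knockout BO57 there were 0, and without BP03, BN45 or BP04 there was 1, while 1.99 to 2.88% of all genes were at that p without 1 animal.

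The stem effect minus the Paneth effect was negative for 72 of 82 members, with a median of -0.42 and 6 at an unadjusted p under 0.05, where 3.31% of all genes were negative. Rpl36a (-0.76 ± 0.26, adjusted p = 0.617) and Rpl13a (-0.74 ± 0.28) had the smallest p. Without BO58 the median was -0.22 and 1 member was at that p, against 14 without BP03, 3 without BO25, 2 without BN45 and 1 without BO57 or BP04 (2.7 to 3.47% of all genes). The TA effect minus the Paneth effect was split, with 46 positive and 36 negative members and a median of 0.02 (0.21 without BO58, and -0.09 without BP03), and 0 members at an unadjusted p under 0.05, where 2.85% of all genes were positive and 2.11% negative. edgeR called 0 members in both, where at most 0.00511% of all genes were called in a direction, and DESeq2 called 0.

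Animal by animal, the summed level of the 85 genes was higher in stem than in TA cells in each control, by 1.35-fold in BN44, 1.21-fold in BO27, 1.29-fold in BO58 and 1.31-fold in BP03. In knockouts the ratios were 1.11 in BN45, 1.13 in BO25, 0.903 in BO57 and 0.986 in BP04. The number of the 82 tested genes above TA in the stem library of the same animal was 67 to 77 in controls and 12, 26, 47 and 52 in knockouts (BO57, BP04, BN45, BO25). For Rpl32 the ratios were 1.42 to 1.79 in controls and 0.778 to 1.11 in knockouts. The ratios of controls and knockouts did not overlap in any of these 3 measures. They come from the same libraries as the difference of effects above and are given as a description.

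In control animals most members had a higher level in stem than in TA cells. The log2 fold change of stem over TA was positive for 74 of 82 members, with a median of 0.37 against 0.02 over all 16142 genes, and 4 members rose (2.7% of all genes were called higher and 3.62% lower). These were Rps24, Rpl32, Rpl22l1 and Rps26. With the animal as a block, which the 2 fractions of each animal share, 30 members passed the threshold, all higher in stem cells, where 5.06% of all genes were called higher with the block. Of the 82, 34 were at an unadjusted p under 0.05 without the block and 0 were lower, where 10% of all genes were higher and 10.4% lower. Stem and TA libraries did not overlap for 25 members, all higher in stem cells, where 7.77% of all genes were apart in that direction and 7.73% in the other. The count of 4 became 0 without BO27 or without BO58 and 1 without BP03, and the share of all genes called higher was 0.735 to 2.26% without 1 animal.

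Rps24, a small subunit protein with several splice forms (chromosome 14, 24487125 to 24496959, plus strand), stood at 292, 220, 274 and 214 CPM in stem and at 136, 139, 156 and 121 CPM in TA libraries of BN44, BO27, BO58 and BP03. Every stem library lay above every TA library (log2 fold change 0.86 ± 0.14, 1.81-fold, adjusted p = 0.00867). For Rpl32 the value was 0.66 ± 0.15 (adjusted p = 0.0280), for Rps26 0.71 ± 0.18 (adjusted p = 0.0443) and for Rpl22l1 0.56 ± 0.14 (adjusted p = 0.0404). Rps15a, at 0.66, was among those called only with the block (adjusted p = 0.0131).

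In knockout animals the members were split by sign in this comparison. Of 82 members 33 were higher and 49 lower in stem cells, with a median of -0.07 against 0.01 over all 15845 genes, and of 0.03 without BO57. edgeR called 0 members (2.12% of all genes were called higher and 2.57% lower), with 2 lower and 0 higher at an unadjusted p under 0.05 (8.72% of all genes were lower and 9.15% higher). These were Rps27l and Rpl36al. Libraries did not overlap for 2 members higher in stem cells (Rps6 and Rpl15; 6.41% of all genes) and for the same 2 lower (6.69% of all genes). With the animal as a block, Rps27l (adjusted p = 0.00629) and Rpl29 (adjusted p = 0.0339) were lower in stem cells, and DESeq2 called Rps27l and Rpl36al. In each of these fits 5% of all genes were called lower, so 2 members are below the background. Rps24 was at 212 ± 31 CPM in stem and 176 ± 18 in TA libraries (0.27 ± 0.15), and Rpl32 at 985 ± 232 and 1006 ± 167 CPM. The difference in this contrast between genotypes is the stem-minus-TA test above, which called no member.

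**Figure D4:**
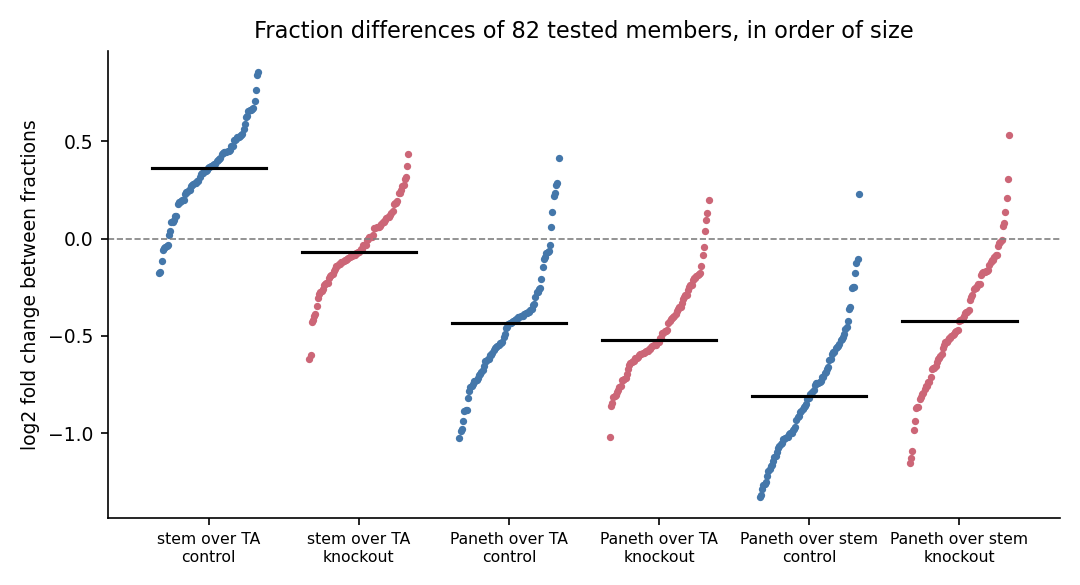
Log2 fold change between fractions for the 82 tested members, in order of size, in control (blue) and knockout (red) animals. Points are genes and black lines the medians. The stem over TA medians are 0.37 in controls and -0.07 in knockouts, and the medians of the Paneth fraction are below 0 in all 4 comparisons.

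In the Paneth fraction most members had a lower level than in either other fraction, in both genotypes. Against TA cells, 17 members fell in controls (75 of 82 negative, median -0.44; 12.2% of all genes were called lower), and 30 fell in knockouts (78 of 82 negative, median -0.52; 12% of all genes). Against stem cells, 39 fell in controls (81 of 82 negative, median -0.81; 11.3% of all genes) and 30 in knockouts (76 of 82 negative, median -0.42; 13% of all genes). No member was called higher in the Paneth fraction, where 17.3% (controls) and 15.8% (knockouts) of all genes were called higher against TA cells and 17.1% and 16.8% against stem cells. None was higher at an unadjusted p under 0.05 either, where 23.5%, 22.6%, 23% and 22.6% of all genes were, in that order, and DESeq2 called 0 higher. Against TA cells, 12 members were called in both genotypes, 70.6% of those called in controls and 40% of those called in knockouts. Against stem cells, 28 were called in both, 71.8% and 93.3%.

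Several of the most abundant members were among those that fell. Rpl4 stood at 1477, 1050, 1858 and 1590 CPM in the Paneth fraction of the controls and at 3679, 3072, 3520 and 3126 CPM in their stem libraries, which did not overlap (log2 fold change -1.16, adjusted p = 0.00644). Rpl3, which lies at the peptidyl transferase centre, fell by 1.33 ± 0.21 in controls (adjusted p = 0.00135) and by 1.15 ± 0.20 in knockouts (adjusted p = 0.00252) against stem cells on the log2 scale. Rpl15 fell by 0.91 in controls and by 0.94 in knockouts, and Rps7, a small subunit protein, fell by 1.29 and by 0.86. Against TA cells Rps2, at the mRNA entry channel, fell by 0.99 in controls and by 1.02 in knockouts.

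Against stem cells Rpl32 was called in both genotypes (adjusted p = 0.0138 in controls and 0.0427 in knockouts), and against TA cells in knockouts (adjusted p = 0.0295), where its value in controls had an adjusted p of 0.154. Rps24 was among the few members of positive sign against TA cells: it stood at 181, 203, 108 and 176 CPM there in controls, and its log2 fold change against TA was 0.28 in controls and 0.04 in knockouts. With its matched pseudogenes added the value in controls was -0.03. With the animal as a block, 10 members were called lower than TA in controls in place of 17, where 13.2% of all genes were called lower, so the count with the block is near the background. The counts called against TA fell to between 4 and 7 in controls without any 1 of the 4 animals, where 6.11 to 11.3% of all genes were called lower, so these counts too are near or below the background. In knockouts they fell to 5 without BO57 and 13 without BP04, where 5.5 to 9.1% of all genes were called lower without 1 animal. Against stem cells the count in knockouts fell to 14 without BO57, 17 without BP04 and 18 without BO25, where 8.35 to 11.4% of all genes were called lower without 1 animal. The Paneth markers made up a large and uneven part of these libraries, as given above, and the part of that in the member values was not tested.

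**Figure D5:**
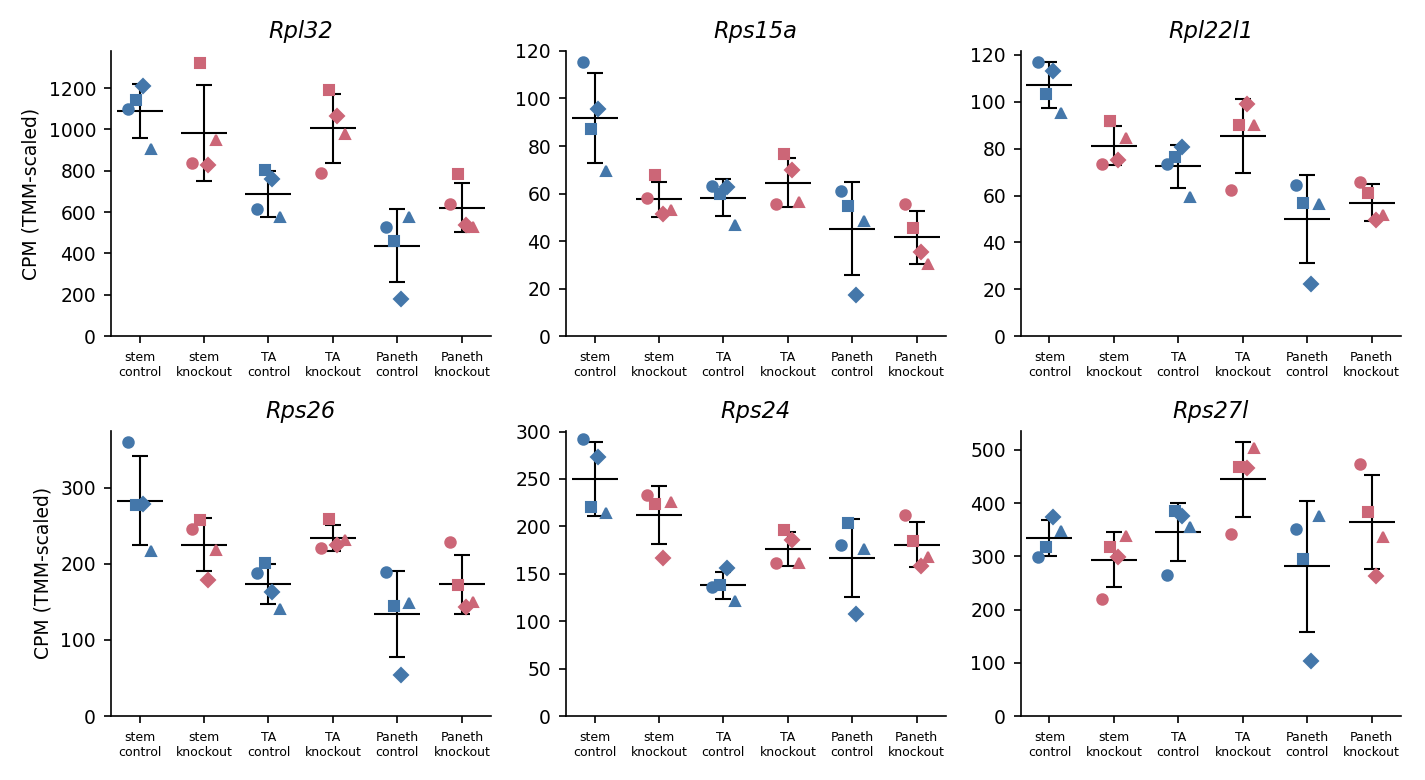
CPM of Rpl32, Rps15a, Rpl22l1, Rps26, Rps24 and Rps27l in each of the 24 libraries, by fraction and genotype. Points are libraries, marked by animal as in the plot of shares by library, and bars show the mean and SD of 4 libraries. The lowest Paneth value in each panel is that of the control BO58.

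Members with a paralog in the set are described next. Rps27l, a paralog of Rps27 that is a known p53 target (chromosome 9, 66946086 to 66949516, plus strand), stood at 298, 317, 374 and 348 CPM in control stem and at 266, 386, 377 and 356 CPM in control TA libraries, which overlapped. In knockouts it stood at 221, 317, 300 and 339 CPM in stem and at 343, 468, 466 and 504 CPM in TA libraries, with no overlap. Its stem over TA value was -0.05 ± 0.15 in controls and -0.60 ± 0.17 in knockouts (adjusted p = 0.0883, or 0.00629 with the animal as a block), and the difference between these had an adjusted p of 1.00.

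Rps27 itself was counted at 6.29 to 13.4 CPM and Rps27rt at 102 to 707 CPM. The 2 share sequence, so how fragments divide between them is uncertain. Per kb the level of Rps27 was 9.12, that of Rps27l 422 and that of Rps27rt 991 CPM. The merged exon lengths behind these values were 1043, 816 and 374 bases. Rpl36al stood at 14.3 ± 2.0 and 16.2 ± 2.2 CPM in control stem and TA cells and at 11.2 ± 1.9 and 17.1 ± 1.9 CPM in the knockout ones, so its stem over TA value was -0.17 ± 0.18 in controls and -0.62 ± 0.20 in knockouts (adjusted p = 0.123). Rpl7l1 lay at 102 to 166 CPM in stem and TA libraries with no genotype difference above 0.10 in size on the log2 scale. Rps19bp1 was at 30.8 to 48.7 CPM in those libraries.

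Other genes of ribosome production were read from lists. Of 24 translation factors and other mRNAs known to carry a TOP motif, 15 of 23 tested were lower in knockout stem cells (median log2 fold change -0.07) and 11 of 24 higher in knockout TA cells (median -0.00). Among them Gas5, a non-coding TOP transcript that hosts small nucleolar RNAs, was at 720 ± 96 CPM in control and 930 ± 47 in knockout TA cells (0.37 ± 0.12, adjusted p = 0.719). Eef1b2, a translation elongation factor subunit, was at 706 ± 86 and 581 ± 14 CPM in stem cells (-0.28 ± 0.12, adjusted p = 0.739).

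Of 50 ribosome biogenesis genes, 30 were higher in stem (median 0.05) and 25 in TA cells (median 0.00). The 17 genes of RNA polymerase I and its factors, which transcribe ribosomal RNA, had medians of -0.03 and -0.03. The 20 genes of mTORC1 and the regulators of these mRNAs had medians of 0.07 and 0.04. Within that list Eif4g1, a scaffold of translation initiation, was at 39.2 ± 3.3 CPM in control and 29.6 ± 3.8 in knockout TA cells (-0.40 ± 0.14, adjusted p = 0.769).

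Mitochondrial ribosomal proteins build the separate ribosome inside mitochondria. Of 77 tested, 60 were lower in knockout stem cells (median -0.12; 12 at an unadjusted p under 0.05) and 52 lower in knockout TA cells (median -0.09; 8 at that p), where 3.91% and 3.3% of all genes were lower at that p. Mrpl11 was at 64.7 ± 12.5 CPM in control and 20.6 ± 8.7 in knockout stem cells (-1.65 ± 0.30, adjusted p = 0.135), and Mrpl2 at 98.4 ± 7.5 and 51.8 ± 11.1 CPM (-0.93 ± 0.17, adjusted p = 0.145). In the Paneth fraction the medians of these 5 lists, in the order given, were -0.05, 0.15, 0.03, -0.00 and 0.08. No gene of these 5 lists was called by edgeR in a genotype comparison, and none is among the 85 members.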

How the data were processed

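RNA was measured in 24 libraries from 8 mice, 4 in each of 6 groups of genotype and sorted fraction. The deposited values are raw counts of fragments per gene, made by the authors with featureCounts 2.0.1 on Ensembl 98 gene models of mm10, per the file headers. Per the file headers, neither strand nor multi-mapping and overlap options were used and the mapping quality had to be at least 1. The counts therefore do not separate sense from antisense reads. With these options, fragments that overlap exons of more than 1 gene, or are marked as mapped to several places, are left uncounted. The counts of members and of their pseudogenes leave such fragments out. The submitters' processing notes name bcl2fastq 2.20.0, and which aligner version was used is not stated there or in the headers. Per the labels' protocols, cDNA from few cells went through 17 PCR cycles before 3 ng of it was tagmented.

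Symbols and coordinates came from GENCODE M21, which matched 55240 of the gene IDs and not the other 181. The 92 ERCC spike-in rows (6 counts or fewer in any library) entered no test, and 0 columns belonged to no sample. No 2 libraries of a group were alike (lowest chi-square per degree of freedom 50.8).

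TMM factors were computed once over the 24 libraries. Genes that passed filterByExpr were tested with the quasi-likelihood test of edgeR 4.0.16 (R 4.3.3) in the 2 groups compared, and differences of genotype effects in 1 fit of the 6 groups, at an adjusted p of 0.05. DESeq2 1.42.0 was an alternative. The code was tested on simulated data. Pseudogenes were matched with BLAST 2.17.0. Tables were built in Python 3.11.15 with pandas 2.3.3, and plots with matplotlib 3.10.9.

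Each animal gave all 3 fractions, so the animal pairs them by design. The correlation of deviations from the group means within an animal was 0.021 to 0.641, but -0.066 between the stem and Paneth libraries of BO58. Control and knockout animals are not paired in the labels. Each library came from its own animal in a group, so p-values of the genotype comparisons measure the spread between animals. Without the block, fraction comparisons and differences of genotype effects treat the fractions of an animal as independent libraries. With the block, p-values measure the spread of differences within animals.

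The members and lists were chosen with earlier results of these data known. Named were Rpl32, the 4 members of smallest p in each direction per genotype comparison and difference of effects, the 3 per direction between fractions, the 4 highest and lowest per kb and all paralogs with their parents. Rplp1, Rplp2, Rpl11, Rpl17, Rpl41 and the single values of other named members were added after values were seen. Single values of some genes are not reported here.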

Additional observations from a re-analysis of the deposited data

Results flagged for a closer look

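In 252 sets of 4 libraries checked (a named member in a group), 12 held a library far from the other 3, and chance alone flags about 1 in 20. In the knockout stem libraries, Rpl15 was at 186 CPM in BN45 against 130 to 139 in the others, Rpl7 at 439 CPM in BP04 against 396 to 402, and Rps24 at 166 CPM in BO57 against 223 to 233.

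In the control TA libraries, Rpl10 was at 54.4 CPM in BN44 against 34.7 to 36.7. In the knockout TA libraries, Rpl15 was at 78.4 CPM in BO25 against 124 to 130, Rps13 at 15.0 CPM in BO57 against 7.92 to 8.41, and Rps19 at 165 CPM in BN45 against 240 to 254.

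In the control Paneth fraction, BO58 was low for Rps15, at 51.2 CPM against 134 to 141. In the knockout Paneth fraction, BO25 was high for Rpl29, at 148 CPM against 107 to 111, and for Rps2, at 131 CPM against 87.0 to 88.4. There BN45 was high for Rpl39, at 89.6 CPM against 18.3 to 29.4, and for Rps27rt, at 540 CPM against 266 to 283.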

How the results depend on the processing

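The median member difference and the share of counts kept their direction or stayed within the replicate spread under every alternative run. Counts of members called did move. For stem over TA in controls, 4 were called, against 20 with DESeq2, 2 with no filter, 8 at a mean of at least 5 CPM, 9 with length and GC correction, 7 and 9 with pseudogenes added by name and by sequence, 1 in the fit of all 24 libraries, 30 with the replicate block and 39 with the block and the correction, and 0 to 4 without 1 animal. For Paneth over TA in controls, 17 were called, against 8 with DESeq2 size factors, 10 with no filter, 11 with the correction, 10 with pseudogenes by sequence, 35 in the fit of all libraries, 10 with the replicate block, 8 with the block and the correction, and 4 to 7 without 1 animal. For stem over TA in knockouts, DESeq2, the replicate block and the block with the correction each called 2. For Paneth over TA in knockouts, 17 were called with no filter and 5 to 36 without 1 animal. For Paneth over stem in knockouts, the range without 1 animal was 14 to 29. DESeq2 called 1 in the stem genotype comparison. The block changed no other count by over 1.5 times. The cause of these shifts was not tested. These members turned sign (log2) when pseudogenes were added, by name and by sequence unless 1 is named. In stem genotype effects, Rpl10a went to -0.0499 and -0.0533, Rps10 to -0.23 and -0.23, and Rps12 to -0.0464 and -0.0473. In TA, Rpl10 went to 0.000895 and 0.0213 and Rpl13a to 0.0381 and 0.14. In Paneth, Rpl5 went to 0.00288 by sequence. In stem minus TA, Rpl10 went to -0.17 and -0.21, Rps10 to -0.50 and -0.52, and Rpl15 to -0.0720 by sequence. In stem minus Paneth, Rpl10a went to -0.23 and -0.24, Rps12 to -0.37 and -0.38, and Rpl5 to -0.10 by sequence. In TA minus Paneth, Rps13 went to 0.14 and 0.15. In Paneth over TA, Rpl28 went to -0.15 and -0.17 in controls and -0.23 and -0.23 in knockouts, Rps13 to -0.45 and -0.46 in knockouts, and by sequence Rps24 to -0.0283 in controls and Rpl24 to -0.33 in knockouts. In Paneth over stem in controls, Rpl28 went to -0.62 and -0.66. In stem over TA in controls, Rpl36al went to 0.0129 by sequence. With length and GC correction, Rpl10 and Rpl13a in TA went to 0.00635 and 0.00872, Rpl32 in stem over TA in knockouts to 0.11 (0.10 with the block) and Rps2 in controls to 0.0585 (0.0506 with the block). With the block, Rpl39 in Paneth over stem in knockouts went to -0.000467. Without 1 animal, ranges that crossed 0 were, for stem minus TA, -0.0407 to 0.29 (Rpl10), -0.0297 to 0.32 (Rps10) and -0.14 to 0.19 (Rps2), for stem minus Paneth -0.14 to 0.58 (Rps12), for TA minus Paneth -0.20 to 0.36 (Rpl32), for the TA genotype effect -0.16 to 0.14 (Rpl10) and for the stem one -0.0862 to 0.35 (Rps10). Between fractions they were, for Paneth over TA in knockouts, -0.0928 to 0.36 (Rpl24), -0.16 to 0.33 (Rpl28) and -0.19 to 0.41 (Rps13), for Paneth over stem -0.12 to 0.40 (Rpl28, controls) and -0.32 to 0.39 (Rpl39, knockouts), and for stem over TA -0.11 to 0.0926 (Rpl32, knockouts) and -0.22 to 0.12 (Rps2, controls).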
